A study of Solanum lycopersicum x Solanum pennellii and Solanum lycopersicum and Solanum pennellii with 305 samples.

Results

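IL6-2 is a tomato introgression line, a plant of the cultivar M82 (Solanum lycopersicum) in which a stretch of chromosome 6 has been replaced by the corresponding stretch of the wild species S. pennellii. Its 4 root tip libraries were compared here with the 4 libraries of M82, these being 2 of the 77 genotypes used from the series. Members were chosen by their labels, as the libraries of this line and of its recurrent parent. Each library was made from 7 to 14 pooled root tips of 1 cm, cut 3 to 4 days after germination. The replicates of a genotype were grown at different times, 2 weeks apart. The p-values refer to the spread between such libraries of 1 genotype. That spread was estimated over the 77 genotypes together and not from IL6-2 and M82 alone. The other genotypes are S. pennellii itself (3 libraries, PENN below) and 74 further introgression lines (ILs). IL6-1 and IL6-3 carry neighbouring stretches of chromosome 6 and overlap IL6-2 at its 2 ends, and the 71 ILs whose introgression lies on another chromosome served as a reference that contains no M82 library. RNA was measured as the number of reads counted per gene, and levels are given as CPM, the reads on a gene scaled to the same total in each library, after TMM scaling.

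In an introgression line a gene inside the introgressed stretch is transcribed from the S. pennellii allele, and a difference in that allele's own sequence is said to act in cis. A gene elsewhere in the genome has the same M82 allele in the line and in M82, so a difference there is said to act in trans, by way of a product of the introgressed stretch. The labels do not say that the rest of the genome was free of S. pennellii sequence, and marker genes were used to look at this. The series asked which loci set root growth angle and gravitropism in tomato roots, and the comparison of each IL with M82 asked which transcripts each introgressed stretch changes in the root tip. Here cis means an identifier that starts with Solyc06g and trans any other identifier. The files used here do not pair identifiers with gene functions, so the response could be split by position, direction, size and behaviour in other lines but not by function, and few identifiers are given. For the same reason the root tip label could not be checked against markers of root cell types.

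A total of 1485 of 19591 genes were called differentially expressed in IL6-2 against M82 (7.58%, edgeR's quasi-likelihood test, Benjamini-Hochberg adjusted p of at most 0.01). Of these, 869 were higher in IL6-2 (4.44%) and 616 were lower (3.14%). The trans part held most of them, with 726 genes higher and 481 lower among 17859 tested. The cis part held 143 higher and 135 lower among 1732 tested. IL6-2 was sequenced less deeply than M82, with 1756911 to 3227394 reads on genes per library against 3078847 to 4835467 in M82, and its replicate 4 was the shallowest of these 8 libraries. That replicate also stood closest to M82 in the trans genes, so counts with and without it are given below. Its part in the trans response was not tested.

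The label of the line was checked with marker genes chosen without any IL6-2 or M82 library. These were genes that differed between PENN and the 71 ILs by a log2 fold change of at least 3. On chromosome 6 there were 142 such markers, and each IL6-2 library was placed on a scale from 0, the mean of the 71 ILs, to 1, the mean of PENN. A single stretch of 53 markers stood out, from Solyc06g053380 to Solyc06g072860, in which 44 markers had a median position of at least 0.5 over the 4 IL6-2 libraries. Inside it the median position was 0.855, 0.862, 0.842 and 0.734 in IL6-2 replicates 1 to 4, and over the 64 markers before it on chromosome 6 it was between -0.024 and -0.0069. Over the 25 markers after it the median position was 0.132, 0.247, 0.369 and -0.040, so replicates 1 to 3 stood above 0 there and replicate 4 did not, and 1 of these 25 markers had a median of at least 0.5 over the libraries. These 4 libraries therefore carried a donor-like pattern in this stretch, with replicate 4 the least far along the scale. In the authors' own labels the cis genes of IL6-2 run from Solyc06g052050 to Solyc06g073010, a slightly longer stretch.

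Transcripts of the stretch that were low in PENN were also low in IL6-2. The 30 markers in the stretch that were lower in PENN summed to 71.8, 69.7, 63.0 and 63.2 CPM in IL6-2, against 677, 675, 714 and 780 CPM in M82. Their sum was 66.9 ± 4.48 CPM in IL6-2, 711 ± 49.0 CPM in M82 (SD, n = 4 each) and 27.5 ± 1.77 CPM in PENN (SD, n = 3). IL6-2 and M82 did not overlap. The stretch was placed where the IL6-2 libraries stood towards PENN, so these sums describe it and were not tested. Replicate 4, which was nearest to M82 in the trans genes, was within the range of the other 3 IL6-2 libraries here. The 23 markers that were higher in PENN summed to 243, 314, 346 and 190 CPM in IL6-2, against 38.4, 42.7, 39.7 and 45.8 CPM in M82. For these, replicate 4 was the IL6-2 library nearest to M82. The mean was 273 ± 69.99 CPM in IL6-2 and 41.7 ± 3.32 CPM in M82 (SD, n = 4 each), with 642 ± 62.9 CPM in PENN (SD, n = 3). Summed, these transcripts thus stood between the levels of the 2 parents.

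No comparable stretch was seen on another chromosome. Over the 1029 markers outside chromosome 6 the median position of the 4 IL6-2 libraries was between -0.052 and 0.0055. The longest run of neighbouring markers at 0.5 or above was 13 genes on chromosome 6 and at most 2 genes on any of the other 11 numbered chromosomes. Single markers did reach 0.5, however, and 86 of the 1029 did so. Of these 86, 70 were among the 726 trans genes called higher in IL6-2. That set of 726 held 133 of the 1029 markers, and 586 of the 1029 were higher in PENN. A marker that is higher in PENN reaches 0.5 only where its level in IL6-2 is raised towards PENN. Overlap with genes called higher in IL6-2 is therefore favoured by how the scale is built, and was not tested.

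**Figure D1:**
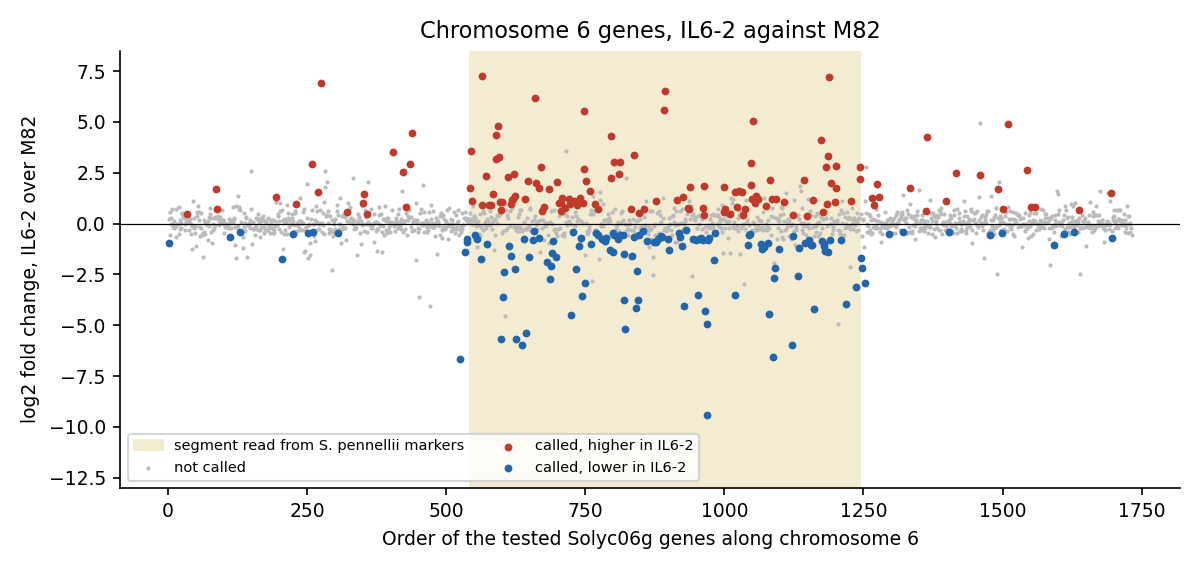
The log2 fold change of IL6-2 over M82 (y axis) for the 1732 tested Solyc06g genes in gene order (x axis). Red points were called higher in IL6-2, blue points lower, grey points were not called, and the shaded band is the stretch read from the S. pennellii markers, which holds 699 tested genes of which 30.9% were called.

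The cis response was concentrated in this stretch. Of the 699 genes tested inside it, 106 were called higher and 110 lower, which is 30.9% called. On the rest of chromosome 6 it was 37 higher and 25 lower of 1033 (6.00%), close to the 6.76% of the trans genes. Counted separately, 5.52% of the 543 genes before the stretch and 6.53% of the 490 genes after it were called. Most genes identified as cis by their chromosome alone and called outside the stretch therefore lay where the share of calls was that of the rest of the genome.

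Within the stretch the 2 directions were nearly equal in number and in size. The median log2 fold change was 1.23 for the 106 higher genes and -1.07 for the 110 lower genes. Changes of at least 1 on the log2 scale were found for 74 of the higher and 59 of the lower genes, and changes of at least 3 for 18 and 22. In 88 of the higher genes the 4 IL6-2 libraries lay above the 4 of M82 without overlap, and in 102 of the lower genes they lay below, where 6.83% and 9.67% of the 19591 genes did so in each direction. Because the reference to which reads were aligned was S. pennellii sequence inside the introgression and M82 sequence elsewhere, differences in expression and differences in mapping between the 2 alleles cannot be told apart for these genes.

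Most called genes of the stretch differed in the same direction in the donor parent. The contrast of PENN with the 71 ILs shares no library with that of IL6-2 with M82. Both contrasts set S. pennellii alleles against M82 alleles in the stretch, however, so neither separates expression from mapping. In it, 79 of the 106 genes higher in IL6-2 were higher in PENN (74.5%, against 23.0% of the 19591 genes), and 85 of the 110 lower genes were lower in PENN (77.3%, against 21.7%). The median log2 differences of PENN from those lines were 0.96 and -0.99. In the direct contrast of IL6-2 with PENN, 21 of the 106 genes were still higher and 13 were lower in IL6-2, and of the 110 genes 6 were higher and 14 were lower. Across the 19591 genes 34.7% differed from PENN. For the genes of the stretch not called against PENN, this contrast does not show that the levels are equal.

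IL6-1 and IL6-3 carry the neighbouring introgressions, and the authors' cis labels place their borders on the same gene order. A labelled span here runs from the first to the last gene of a line's stretch of cis labels. Tested genes between them were counted whether or not they carry a label. In the 99 tested genes within the labelled spans of both IL6-2 and IL6-1, 34 were called in IL6-2 against M82. Only 7 of the 99 differed directly between IL6-2 and IL6-1, whereas 40 differed between IL6-2 and IL6-3, which has M82 alleles there. In the 602 tested genes within the labelled span of IL6-2 alone, 184 differed from M82, 161 from IL6-1 and 187 from IL6-3 in direct contrasts. Across the 19591 genes, 5.91% differed between IL6-2 and IL6-1 and 8.00% between IL6-2 and IL6-3.

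Genes are named here from those called with a mean of at least 5 CPM in IL6-2 or M82 and no overlap between the 2. Among these the cis gene with the largest fall was Solyc06g067880, for which the files used here give no function. It had 0.417 CPM in IL6-2 replicate 1 and 0 CPM in the other 3 replicates, against 85.8, 81.5, 81.3 and 91.3 CPM in M82. This corresponds to 1 read in IL6-2 and 1409 reads in M82, or a level 866-fold lower in IL6-2 (95% exact interval of the ratio from 155 to 34229, counting error only). Its adjusted p was 4.6e-61 in edgeR's quasi-likelihood test. PENN libraries had 0.236 CPM or less, and the means of the 71 ILs were between 75.8 and 107 CPM. Reads on this gene were thus nearly missing where the S. pennellii allele was present and abundant in each of the 71 ILs. Expression and mapping cannot be told apart for this gene either.

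The cis gene with the largest rise within these limits was Solyc06g060190, also without a function in these files. Its levels were 2.09, 7.42, 6.59 and 8.65 CPM in IL6-2, against 0, 0, 0.274 and 0 CPM in M82. The 63 reads in IL6-2 and 1 read in M82 give a ratio of 103 (95% exact interval 17.7 to 4112, counting error only), with an adjusted p of 3.5e-12 in edgeR's quasi-likelihood test. PENN had 9.66, 12.8 and 11.6 CPM, and no mean of the 71 ILs exceeded 0.327 CPM. IL6-2 was also above IL6-1 (log2 difference 5.62, SE 0.66) and above IL6-3 (6.38, SE 0.71).

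A gene of the stretch that the paper names CDC73, Solyc06g054080, was not called. CDC73 is known from yeast, animals and Arabidopsis as a subunit of the PAF1 complex, which travels with RNA polymerase II during transcription. It had 20.9, 20.8, 20.2 and 27.6 CPM in IL6-2, against 18.6, 20.3, 23.3 and 23.3 CPM in M82. The 2 groups overlapped, with a log2 fold change of 0.05 (SE 0.18, adjusted p = 0.89, edgeR's quasi-likelihood test). The gene also lies within the labelled span of IL6-1 but not within that of IL6-3. The direct differences were -0.14 (SE 0.18) from IL6-1, 0.09 (SE 0.18) from IL6-3 and -0.21 (SE 0.19) from PENN on the log2 scale, with adjusted p of 0.64, 0.78 and 0.39 in edgeR's quasi-likelihood test.

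**Figure D2:**
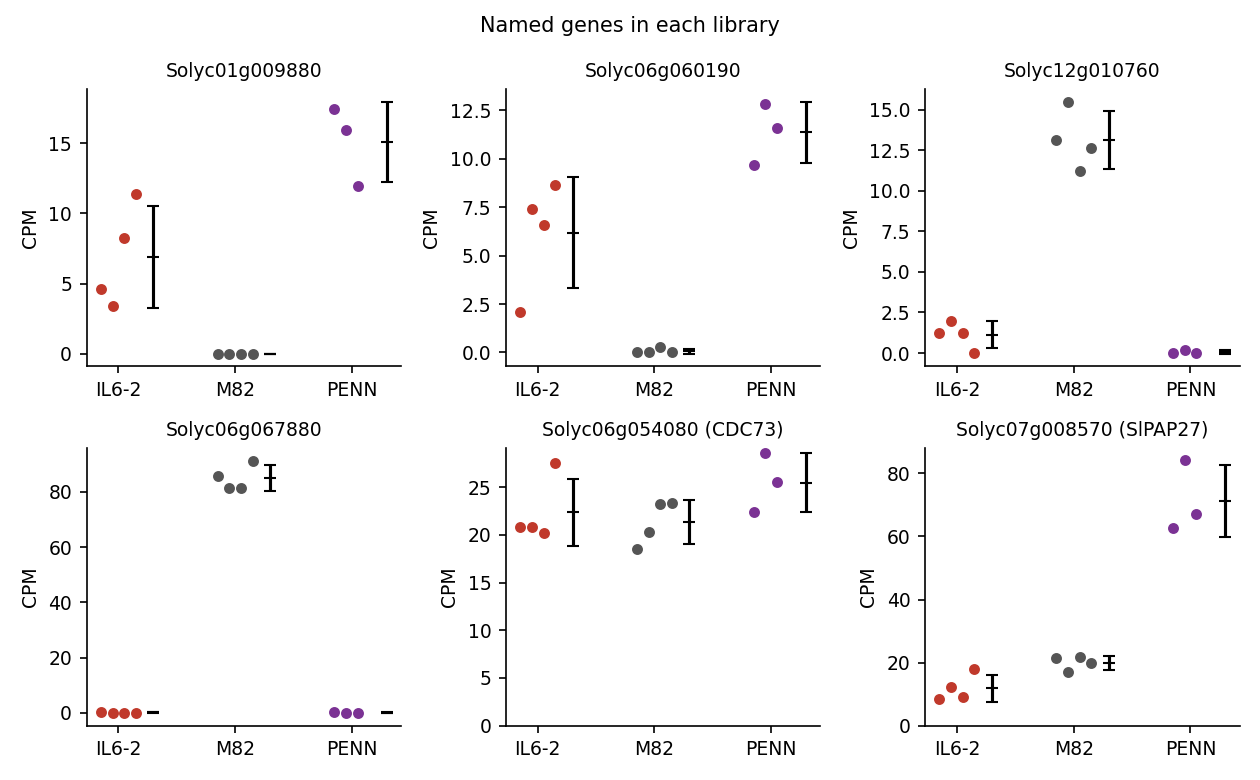
Levels in CPM (y axis) in each IL6-2, M82 and PENN library for the 4 genes with the largest trans and cis changes within the stated limits and for CDC73 and SlPAP27. Points are libraries, and the dash with bars beside them is the mean ± SD. Solyc06g067880 is at or below 0.417 CPM in IL6-2 and at 81.3 CPM or more in M82, while CDC73 overlaps between the 2.

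The trans genes were spread over the genome. On the 11 numbered chromosomes other than chromosome 6, between 5.89% (chromosome 3) and 7.51% (chromosome 2) of the tested genes were called. Genes higher in IL6-2 made up between 3.36% of those tested (chromosomes 8 and 12) and 5.04% (chromosome 2), and genes lower made up between 2.02% (chromosome 10) and 3.22% (chromosome 11). Genes not placed on a chromosome reached 10.6%, but only 151 of them were tested. Called trans genes were not clustered in long runs, and at most 4 neighbouring tested genes were called higher in a row.

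**Figure D3:**
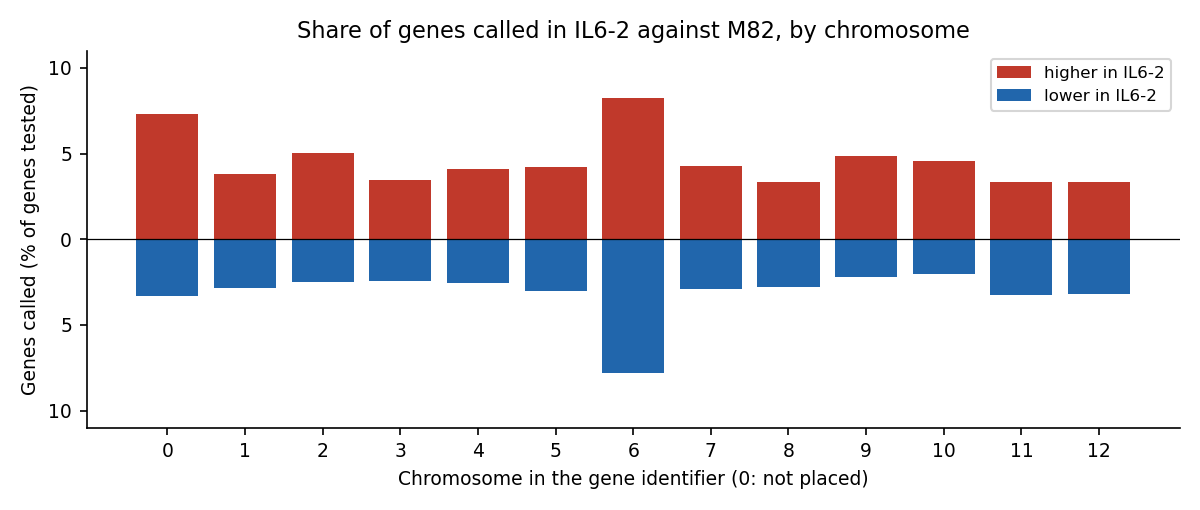
The share of tested genes called higher (red, upwards) and lower (blue, downwards) in IL6-2 against M82 for each chromosome number in the identifier, with 0 for genes not placed. Chromosome 6 has 8.26% higher and 7.79% lower, and the numbered chromosomes other than 6 lie between 3.36% and 5.04% higher and between 2.02% and 3.22% lower.

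The genes that rose in trans and those that fell differed in size of change and in read support. The median log2 fold change was 1.39 for the 726 higher genes (quartiles 0.89 and 2.19) and -0.59 for the 481 lower genes (quartiles -0.77 and -0.49). A change of at least 1 on the log2 scale was found for 483 of the higher genes and 68 of the lower genes. The mean over the libraries of the 77 genotypes was under 10 CPM for 373 of the 726 higher genes and for 25 of the 481 lower genes. CPM is not divided by gene length, so these values describe the reads behind a call and not the level of transcript relative to other genes.

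Part of this contrast held across the tested genes as a whole. Over the 19591 genes the median log2 fold change was 0.42 below 1 CPM, 0.18 from 1 to 10 CPM, -0.04 from 10 to 100 CPM and -0.16 at 100 CPM and above. Within a class of read support the called genes still differed in size. From 10 to 100 CPM the median was 0.91 for 306 higher and -0.62 for 248 lower trans genes. At 100 CPM and above the medians were 0.71 for 47 higher genes and -0.55 for 208 lower genes. The classes are wide, so read support may still differ between higher and lower genes within them. In 16 of the higher trans genes no read was found in M82, and the median stayed at 1.39 when these were set to the lower bound given by 3 reads over the M82 libraries.

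Summed over the set, the 726 higher genes took 38651, 33308, 46818 and 22332 CPM in IL6-2, against 19298, 18428, 16622 and 17506 CPM in M82. The groups did not overlap, although replicate 4 of IL6-2 lay close to M82. The 481 lower genes took 44884, 50308, 44868 and 56497 CPM in IL6-2, against 73375, 69787, 83092 and 69026 CPM in M82. Here too replicate 4 was the IL6-2 library nearest to M82. These sums describe genes chosen on this contrast, so no test was made of them. Gene by gene, 395 of the 726 higher genes and 397 of the 481 lower genes did not overlap between the 4 IL6-2 and the 4 M82 libraries, where 6.83% and 9.67% of the 19591 genes did so.

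The size of the response of the higher trans genes differed widely between the IL6-2 libraries. As a measure, the median log2 difference from the mean of the 71 ILs was taken over each set. For the 726 higher trans genes it was 1.17, 1.01, 1.59 and 0.24 in IL6-2 replicates 1 to 4, against -0.05, -0.13, -0.34 and -0.25 in M82. For the 481 lower trans genes it was -0.68, -0.50, -0.68 and -0.34 in IL6-2, against 0.05, 0.03, 0.19 and -0.01 in M82. For the higher genes the range over the 4 IL6-2 libraries was 1.35, the widest of the 77 genotypes, where the median range was 0.28. For the lower genes it was 0.34, with a median of 0.23 over the 77 genotypes and a wider range in 15 of them.

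In the stretch the range was 0.40 for the higher and 0.25 for the lower genes. The measure was 1.296, 1.295, 1.304 and 0.902 for the 106 higher genes in IL6-2, against -0.08, 0.01, -0.11 and -0.07 in M82. For the 110 lower genes it was -1.13, -0.94, -1.15 and -0.89 in IL6-2, against 0.07, 0.05, 0.08 and 0.04 in M82. Libraries with the same replicate number were sequenced in the same pool. Within each pool the median IL6-2 minus M82 difference of the higher trans genes was 1.22, 1.13, 1.90 and 0.47, and that of the lower trans genes -0.74, -0.51, -0.87 and -0.33. The direction was thus the same in the 4 pools, as the choice of genes favours.

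**Figure D4:**
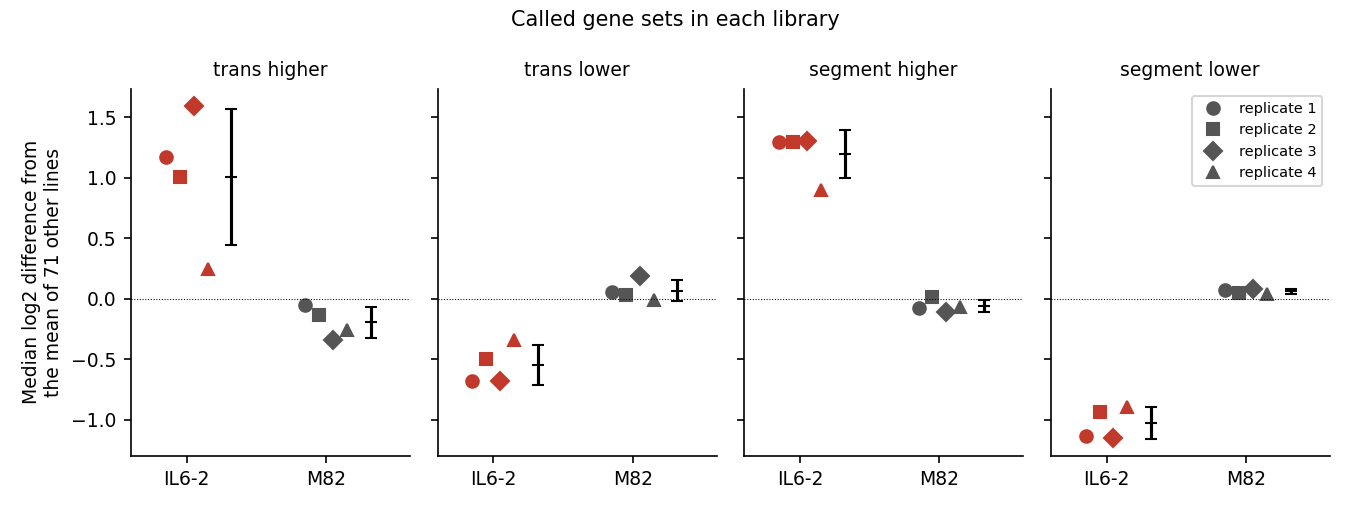
The median log2 difference from the mean of the 71 ILs (y axis) over the 726 higher and 481 lower trans genes and the 106 higher and 110 lower genes of the stretch, in each IL6-2 and M82 library. Symbols mark replicates and bars the mean ± SD. Replicate 4 of IL6-2 is at 0.24 for the higher trans genes, where the other 3 lie between 1.01 and 1.59.

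The number of trans calls depended on single libraries. Without IL6-2 replicate 3 there were 299 higher and 112 lower trans genes, without IL6-2 replicate 1 there were 469 and 153, and without M82 replicate 3 there were 454 and 134. Without IL6-2 replicate 4 the counts were larger, at 988 and 609. Calls that were made with each of the 8 libraries left out in turn numbered 245 of the 726 higher genes and 58 of the 481 lower genes. In the stretch 67 of the 106 higher and 69 of the 110 lower genes kept their call in the same way. The cis counts fell most without IL6-2 replicate 3, to 94 higher and 85 lower.

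Replacing M82 by the 71 ILs kept most of the called genes. Of the 726 higher trans genes, 699 were higher in IL6-2 than in the mean of those lines, and 453 of the 481 lower genes were lower, where 9.99% and 8.42% of the 19591 genes were called in these directions. Most calls were thus also made without the M82 libraries. The same IL6-2 libraries stand in both contrasts, which favours keeping a call. M82 itself differed from those lines in 0.051% of the genes upwards and 0.0204% downwards. The medians of the 2 trans sets in M82 against those lines were -0.20 and 0.05.

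The trans genes of IL6-2 moved in several lines whose introgressions lie on other chromosomes. The contrasts of those lines use no IL6-2 and no M82 library. Each such line is among the 71 ILs and was left out of its own reference. IL12-3 and IL4-4 were chosen with earlier results of these data known, so their shares do not show how often the response recurs. In IL12-3, 563 of the 726 genes were higher (77.5%, against 17.2% of the 19591 genes) and 389 of the 481 were lower (80.9%, against 14.9%). In IL4-4 the counts were 436 higher (60.1%, against 18.8%) and 308 lower (64.0%, against 16.9%). The median log2 differences of the 2 sets were 0.97 and -0.53 in IL12-3, and 0.67 and -0.39 in IL4-4. They were of the same sign as in IL6-2 and smaller in IL4-4 than in IL12-3.

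A further pair of lines was also picked with results known, after their own values had been seen. In IL3-5, 425 of the higher genes were called higher (58.5%, against 7.46%) and 237 of the lower genes lower (49.3%, against 5.46%). In IL9-3-1 the counts were 329 (45.3%, against 5.88%) and 230 (47.8%, against 4.92%). Of the 75 genotypes other than IL6-2 and M82, the mean of the library medians over the 726 higher genes had a median of -0.04 and ran from -0.29 to 0.93. It was above 0.5 in 6 genotypes, which all were ILs of other chromosomes. IL12-3 came first of these 75, and it was also the lowest of them for the 481 lower genes, at -0.55.

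In the direct contrast of IL6-2 with IL12-3 a small share of these genes was called. Of the 726 higher trans genes, 30 were higher in IL6-2 than in IL12-3 (4.13%, against 1.24% over the 19591 genes), with a median log2 difference of 0.12. Of the 481 lower genes 9 were lower than in IL12-3 (1.87%, against 1.3%), with a median of -0.0068. Against IL4-4 the counts were 138 higher (19.0%, against 2.57%, median 0.44) and 24 lower (4.99%, against 2.15%, median -0.15). Across the 19591 genes 2.54% differed between IL6-2 and IL12-3 and 4.72% between IL6-2 and IL4-4. For the genes that were not called, equal levels are not shown by these tests.

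**Figure D5:**
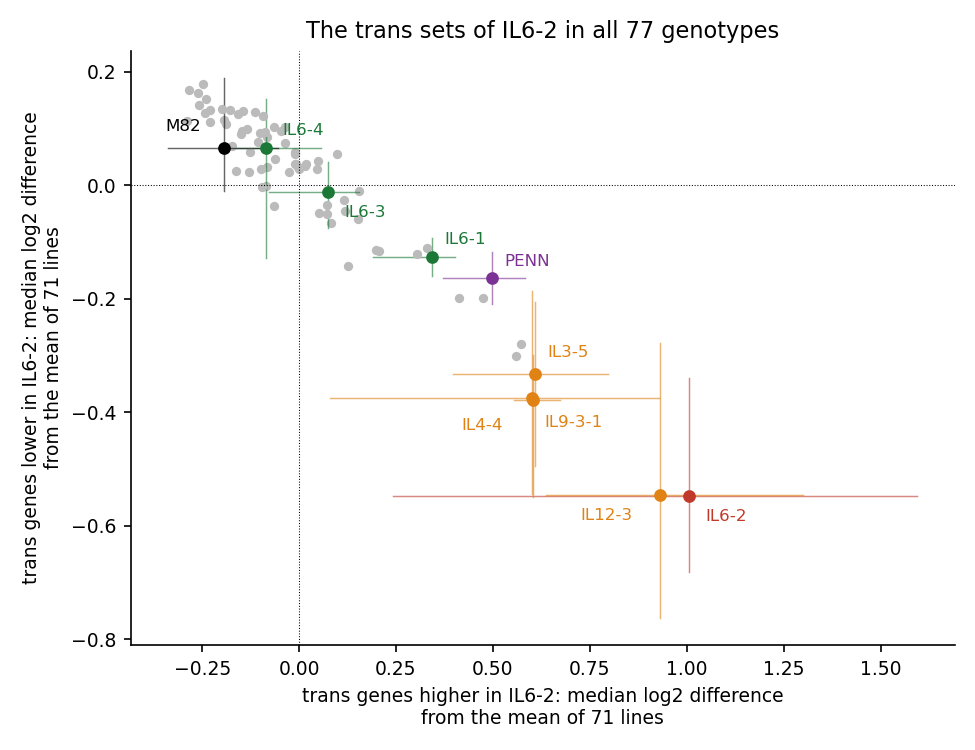
Mean over libraries of the median log2 difference from the 71 ILs for the 726 trans genes higher in IL6-2 (x axis) and the 481 lower (y axis), with 1 point for each of 77 genotypes. Lines on the named points span the lowest to the highest library. IL6-2 lies at 1.01 and -0.55, IL12-3 at 0.93 and -0.55, and M82 lies among the unnamed ILs in grey.

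The other lines of chromosome 6 showed the trans response to different degrees. In IL6-1 against the 71 ILs, 260 of the 726 genes were higher (35.8%, against 9.64% of the 19591 genes) and 52 of the 481 were lower (10.8%, against 3.46%), with medians of 0.35 and -0.14. In IL6-3 the medians were 0.06 and -0.02, and in IL6-4 they were -0.07 and 0.06. In direct contrasts 233 of the 726 genes were higher in IL6-2 than in IL6-1 (32.1%, against 3.09% over the 19591 genes) and 452 were higher than in IL6-3 (62.3%, against 4.76%). Of the 481 genes, 98 were lower than in IL6-1 (20.4%, against 2.82%) and 247 lower than in IL6-3 (51.4%, against 3.24%). The genes were chosen for their levels in these same IL6-2 libraries, which favours IL6-2 in the direct contrasts. These counts therefore describe the lines, and whether the response is larger in IL6-2 was not tested.

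The donor parent did not share the trans response uniformly. In PENN against the 71 ILs, 351 of the 726 genes were higher (48.3%, against 23.0%) and 104 were lower (14.3%, against 21.7%). Of the 481 genes, 153 were lower (31.8%, against 21.7%) and 48 were higher (9.98%, against 23.0%). The shares in the opposite direction were thus below those over the 19591 genes. Compared directly, 297 of the 726 genes were higher in IL6-2 than in PENN (40.9%, against 18.2% over the 19591 genes) and 142 were lower (19.6%, against 16.5%). The same trans genes therefore included genes above the level of S. pennellii, and genes below it at a share near that over the 19591 genes.

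IL6-2 was then set against 6 references at once, of which IL12-3 and IL4-4 are among the lines nearest to it in the trans genes, a choice that lowers the trans count. Over the 19591 genes 97 (0.495%) were called in the same direction against the 6. Of these, 6 of the 1207 called trans genes met these conditions, against M82, the 71 ILs, IL6-1, IL6-3, IL12-3 and IL4-4. In the stretch 40 of the 106 higher and 49 of the 110 lower genes met them.

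The trans gene with the largest rise within the same limits, Solyc01g009880, was among these 6 and carries no function in the files used here. It had 4.59, 3.43, 8.23 and 11.35 CPM in IL6-2 and no read in the 4 M82 libraries. Its mean of 6.90 CPM in IL6-2 was at least 38.1-fold higher than the level given by 3 reads over the 4 M82 libraries (adjusted p = 1.1e-16, edgeR's quasi-likelihood test). Unlike the trans set as a whole, it was highest in replicate 4. PENN had 17.4, 16.0 and 11.9 CPM, and of the 71 ILs only IL1-1-4 (17.5 CPM) and IL1-1-3 (14.2 CPM), which carry S. pennellii sequence on chromosome 1, had means above that of IL6-2. A mean below 1 CPM was found in 68 of the 71 lines. Runs of markers cannot show donor sequence at a single gene, and whether IL6-2 carries it here was not tested. Whether reads from elsewhere map to this gene was not tested either.

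The trans gene with the largest fall within them, Solyc12g010760, was likewise without a function. It had 1.25, 2.00, 1.24 and 0 CPM in IL6-2, against 13.12, 15.50, 11.23 and 12.62 CPM in M82 (log2 fold change -3.35, SE 0.43, adjusted p = 2.1e-11, edgeR's quasi-likelihood test). The groups did not overlap. The 71 ILs were themselves divided for this gene, with means below 1 CPM in 45 lines and of at least 5 CPM in 22. Against the mean of those lines the direction turned, and the log2 difference was 1.08 (SE 0.42, adjusted p = 0.036). IL6-1 had a mean of 15.7 CPM, from which IL6-2 differed by -3.61 on the log2 scale (SE 0.41). IL6-3 had 0.623 CPM, and IL6-2 did not differ from it beyond the error (0.91, SE 0.71).

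SlPAP27, Solyc07g008570, is a trans gene for IL6-2 that the paper names, and it encodes a purple acid phosphatase, a family of enzymes that release phosphate from organic esters. It had 8.35, 12.27, 9.06 and 17.83 CPM in IL6-2, against 21.4, 16.9, 21.6 and 19.8 CPM in M82. Replicate 4 of IL6-2 overlapped M82, and the log2 fold change of -0.76 (SE 0.23) did not pass the threshold (adjusted p = 0.012, edgeR's quasi-likelihood test). The replicate block brought it past the threshold (adjusted p = 0.0069), as did leaving out IL6-2 replicate 4 (adjusted p = 0.0029, both edgeR's quasi-likelihood test). It lay further from the threshold without IL6-2 replicate 1 or 3 (adjusted p = 0.085 and 0.087) and with IL6-2 and M82 alone (0.038, same test). In these fits the transcript stayed lower in IL6-2. Against the mean of the 71 ILs it was called lower in IL6-2, by a log2 difference of -0.84 (SE 0.18, adjusted p = 9.8e-05, edgeR's quasi-likelihood test). None of these 71 lines had a mean as low as the 11.9 CPM of IL6-2, and the lowest was at 12.22 CPM. IL12-3 and IL4-4 had 13.8 and 12.7 CPM, and IL6-2 did not differ from them beyond the spread (-0.24, SE 0.24, and -0.13, SE 0.24).

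Its paralog Solyc07g008550 had 31.1 ± 11.05 CPM in IL6-2 and 33.3 ± 1.11 CPM in M82 (SD, n = 4 each), a log2 fold change of -0.13 with SE 0.17. Solyc01g014230, a U-box protein used by the study as a qPCR reference, had 24.9 ± 6.22 CPM in IL6-2 and 31.1 ± 4.08 CPM in M82 (SD, n = 4 each), a log2 fold change of -0.29 with SE 0.15. Neither passed the threshold (adjusted p = 0.63 and 0.15, edgeR's quasi-likelihood test).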

How the data were processed

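The authors mapped single-end reads with BWA to a reference of its own for each line, with S. pennellii sequence in the introgressed stretch and M82 sequence in the remainder, and counted them per gene with samtools. The version of either tool is not given in the sources used here. Values deposited by them are raw counts, without normalization. Of the count columns, 9 matched no label and were left out. The authors' table of comparisons holds fold changes and p-values, which were not used. Only its deposited cis or trans label was used.

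Libraries were grouped by their labels. Counts were scaled by TMM in edgeR 4.0.16 (R 4.3.3) and filtered by filterByExpr, which kept 19591 of 29633 genes. A quasi-likelihood model with a term for genotype and no other was fitted to the libraries of the 77 genotypes together (negative binomial dispersion 0.0235). p-values were adjusted by Benjamini-Hochberg within each contrast and called at 0.01. The fit was checked on simulated data. At a depth of 1756911 to 4835467 reads in these 8 libraries, 1 read is a sizeable part of a level below 1 CPM. Exact binomial intervals at 95% used scipy 1.17.1, and intervals and the floor of 3 reads cover counting error only.

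S. pennellii markers were genes that differed between PENN and the 71 ILs of other chromosomes (adjusted p of at most 0.01, absolute log2 fold change of at least 3). The stretch was the run of chromosome 6 markers with the largest excess of markers at 0.5 or above over those below. Set medians used log2 CPM with a prior count of 1. No 2 of the IL6-2 libraries correlated above 0.962 with each other, and none was treated as a repeat.

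Libraries with the same replicate number formed 1 pool for sequencing per the study's methods, so the numbers pair the libraries. Deviations from the group means correlated across genes by -0.01, 0.15, -0.09 and 0.06 between the same-numbered IL6-2 and M82 libraries.

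The genes named are, among those called, not overlapping and with a mean of at least 5 CPM in IL6-2 or M82, the trans and the cis gene with the largest rise and with the largest fall, and the 4 genes that the paper names by function. Lists by function and markers of cell types had been planned. They could not be filled, because no table used here pairs identifiers with functions, and no sequence was at hand. The comparison, the lists and the contrast lines were chosen with earlier results of these data known. Alternatives were DESeq2 1.42.0 size factors, DESeq2 and the quasi-likelihood test on IL6-2 and M82 alone, edgeR's exact test, other filters, thresholds and definitions of cis, another reference, the replicate block and leaving out each library.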

Additional observations from a re-analysis of the deposited data

Results flagged for a closer look

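In 5 of the 24 groups of 4 libraries looked at, 1 library lay far from the other 3, where chance gives about 1 in 20. In IL6-2 replicate 4 was the far library for CDC73 (27.6 CPM), for Solyc07g008550 (47.6 CPM, others between 23.8 and 26.8 CPM) and for the median of the higher genes of the introgressed stretch (0.90 on the log2 scale). The remaining pair are single reads, in IL6-2 replicate 1 for Solyc06g067880 (0.417 CPM) and in M82 replicate 3 for Solyc06g060190 (0.274 CPM).

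The named genes with the largest changes were also compared directly between IL6-2 and the neighbouring lines by edgeR's quasi-likelihood test. For Solyc01g009880 the log2 difference was 5.197 from IL6-1 and 5.73 from IL6-3, and for Solyc06g060190 it was 5.62 and 6.38. For Solyc06g067880 it was -9.53 from IL6-1 and -9.48 from IL6-3. Solyc12g010760 differed from IL6-1 by -3.61, and its difference of 0.91 (SE 0.71) from IL6-3 did not pass the threshold (adjusted p = 0.38).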

How the results depend on the processing

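Counts are given in the order trans higher, trans lower, cis higher, cis lower and all, and were 726, 481, 143, 135 and 1485 in the fit of all 77 genotypes. With IL6-2 and M82 alone they were 329, 208, 83, 81 and 701. With the mean of the 71 ILs as the reference they were 1705, 1418, 252, 232 and 3607. At an adjusted p of at most 0.05 they were 1441, 1325, 224, 207 and 3197. With an absolute log2 fold change of at least 1 the trans counts were 483 and 68, the cis lower count 67 and the total 716. Calls made in each of the 8 fits without 1 library, an alternative chosen after seeing the data, numbered 245, 58, 81, 77 and 461. Leaving out 1 library gave 299 to 988 trans higher, 112 to 609 trans lower, 94 to 163 cis higher, 85 to 130 cis lower and 590 to 1890 calls in all. The causes of these moves were not tested, beyond the fewer libraries or stricter limits that the settings themselves bring.

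DESeq2's size factors, DESeq2 on IL6-2 and M82 alone, the exact test, no filter, a mean of at least 5 CPM, other definitions of cis and the replicate block (870 and 666 trans, 160 and 149 cis genes) stayed within 1.5 times of these counts. The genes changed more than the counts did. DESeq2 on IL6-2 and M82 alone kept 367 of the 726 higher and 218 of the 481 lower trans calls. The quasi-likelihood test on the same libraries kept 271 and 112. In both fits 546 of the 726 and 474 of the 481 genes stayed on the same side of 0. Genes that the filter left out of a fit, such as Solyc06g060190 in both, could not keep a call. The block changed the call of SlPAP27 and of no other named gene. Solyc12g010760 turned to 1.08 against the mean of the 71 ILs. CDC73 was at -0.038 without IL6-2 replicate 4, -0.0084 without M82 replicate 1 and up to 0.11 without another library. SlPAP27 was called without IL6-2 replicate 4 (adjusted p = 0.0029, edgeR's quasi-likelihood test) and was not called when any other of the 8 libraries was left out. Members of lists by function could not be recomputed, since no list could be filled. Depth limits the genes below 1 CPM, and 1 read decides whether a fold can be given there.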
